A study of Mus musculus with 4 samples.

Results

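A list of 10 genes known as markers of retinal ganglion cells was followed across 4 whole-retina RNA libraries. The members were taken from the deposited table by exact gene symbol (Pou4f1, Pou4f2, Pou4f3, Isl2, Nefl, Nefm, Nefh, Thy1, Rbpms and Sncg). All 10 were found among the 23278 genes of the table, and all 10 were among the 13150 genes that averaged 1 FPKM or more (fragments scaled by transcript length and by library total) and had an accepted quantification status in all 4 libraries. Retinas were collected on postnatal day 10 from mice of a mixed strain with at least C57BL6 and 129 in it, and every mouse had been injected intraperitoneally with 20 ug of 4HT, which activates CreER, on postnatal day 3. The WT library had neither engineered change. The NdpKO library came from knockouts of Ndp, which encodes the secreted protein Norrin. The library called stabilized here carried Ctnnb1flex3/+ and Pdgfb-CreER: Cre recombination of this allele gives a stabilized beta-catenin, and Pdgfb regulatory sequence directs the CreER to endothelial cells. The library called stabilized NdpKO combined NdpKO, Ctnnb1flex3/+ and Pdgfb-CreER. The CreER was thus absent from WT and NdpKO, while 4HT was given to all.

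Each genotype had 1 library, made from 3 pooled batches of RNA, each of 4 to 8 retinas from 2 to 4 mice. Pooling left no spread between animals, so a difference between 2 libraries has no replicate check. The intervals given are those deposited with each FPKM. Their confidence level and the fragment totals were not given in the sources used here. With 1 pooled library per genotype, the intervals do not measure the variation between mice of a genotype. The commonest ratio among the lowest values placed the depth of NdpKO at about 0.53, of stabilized at 0.43 and of stabilized NdpKO at 0.58 of that of WT. Ndp itself was at 2.98 FPKM in WT and 2.35 FPKM in stabilized, against 0.873 FPKM in NdpKO and 0.869 FPKM in stabilized NdpKO. Xist was at 135 and 130 FPKM in WT and stabilized and at 1.25 and 1.28 FPKM in NdpKO and stabilized NdpKO, so the state of Ndp and the sex of the pooled mice cannot be told apart.

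Retinal ganglion cells are the output neurons of the retina, and their axons form the optic nerve. They lie next to the superficial vessels that grow over the retina after birth, and Norrin acts on those vessels through Frizzled-4 and beta-catenin in endothelial cells. The POU4F (Brn3) factors and the LIM homeodomain factor Isl2 are transcription factors of ganglion cells. Nefl, Nefm and Nefh encode the light, medium and heavy neurofilament subunits that fill large axons. Thy1 is a surface glycoprotein, Rbpms an RNA-binding protein and Sncg gamma-synuclein, all long used as ganglion cell markers. Neurofilament genes are also expressed by horizontal cells and Thy1 by other retinal cells, so the POU4F genes are the more restricted part of the list. In bulk RNA, fewer cells of a type and less RNA per cell cannot be told apart.

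Promoters of 4 members were present in the RefSeq promoter table (GRCm38.p6, 250 bases before to 50 after the annotated start), and they are shown because Pou4f1, Pou4f2 and Isl2 were highest in the same library while Sncg was lowest in it. Capitals mark the GC box GGGCGG, searched on both strands, with overlapping matches counted; the opposite strand reads CCGCCC. The Pou4f1 promoter lies at chr14:104467950-104468249 on the minus strand, that of Pou4f2 at chr8:78436598-78436897 on the minus strand, that of Isl2 at chr9:55540899-55541198 on the plus strand and that of Sncg at chr14:34374620-34374919 on the minus strand.
Pou4f1: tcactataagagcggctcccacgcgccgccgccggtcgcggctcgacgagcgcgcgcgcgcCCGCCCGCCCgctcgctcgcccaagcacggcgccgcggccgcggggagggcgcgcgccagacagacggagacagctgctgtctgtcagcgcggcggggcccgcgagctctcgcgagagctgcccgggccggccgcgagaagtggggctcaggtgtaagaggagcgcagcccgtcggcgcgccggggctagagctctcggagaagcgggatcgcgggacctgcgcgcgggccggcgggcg
Pou4f2: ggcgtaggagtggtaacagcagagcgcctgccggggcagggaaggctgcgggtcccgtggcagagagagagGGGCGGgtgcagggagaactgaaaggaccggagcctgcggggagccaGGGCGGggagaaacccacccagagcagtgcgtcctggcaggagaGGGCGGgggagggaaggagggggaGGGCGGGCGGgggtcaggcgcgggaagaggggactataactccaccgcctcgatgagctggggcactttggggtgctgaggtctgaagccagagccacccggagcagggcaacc
Isl2: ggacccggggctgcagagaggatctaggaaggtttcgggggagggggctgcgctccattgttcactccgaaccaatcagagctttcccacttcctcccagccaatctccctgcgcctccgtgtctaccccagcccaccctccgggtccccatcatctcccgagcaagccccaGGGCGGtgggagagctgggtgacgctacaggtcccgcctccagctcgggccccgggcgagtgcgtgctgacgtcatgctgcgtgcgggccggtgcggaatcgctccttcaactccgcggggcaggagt
Sncg: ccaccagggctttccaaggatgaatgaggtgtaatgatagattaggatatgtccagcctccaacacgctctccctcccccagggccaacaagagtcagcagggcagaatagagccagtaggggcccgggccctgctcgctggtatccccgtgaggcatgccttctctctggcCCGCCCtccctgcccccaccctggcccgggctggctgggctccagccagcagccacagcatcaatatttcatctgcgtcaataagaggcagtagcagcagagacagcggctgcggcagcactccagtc
Pou4f2 held 5 GC boxes, Pou4f1 2, Isl2 1 and Sncg 1. A GC box was present in 35.7% of the 32851 promoters of this length in the table. The TATA box TATAAA, present in 13.6% of promoters, was found in none of the 4, and ATTAAT, the core of a POU4F site, present in 4.75%, was found in none either. The E-box CANNTG, the kind of site bound by bHLH factors such as Atoh7, was found in the promoters of Pou4f1 (2 matches) and Sncg (1) and in 72.3% of all promoters. GC content was 78.3% for Pou4f1, 69.7% for Pou4f2, 67.3% for Isl2 and 61.3% for Sncg, against a median of 52.7% over all promoters. The GC box was thus found in all 4 promoters, that of Sncg included.

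Of the 10 members, 8 were higher in all 3 other genotypes than in WT. This held for 24.9% of all tested genes. The exceptions were Pou4f3, lowest in NdpKO, and Sncg, lowest in stabilized. No member was highest in WT, the highest library for 31.4% of tested genes.

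**Figure D1:**
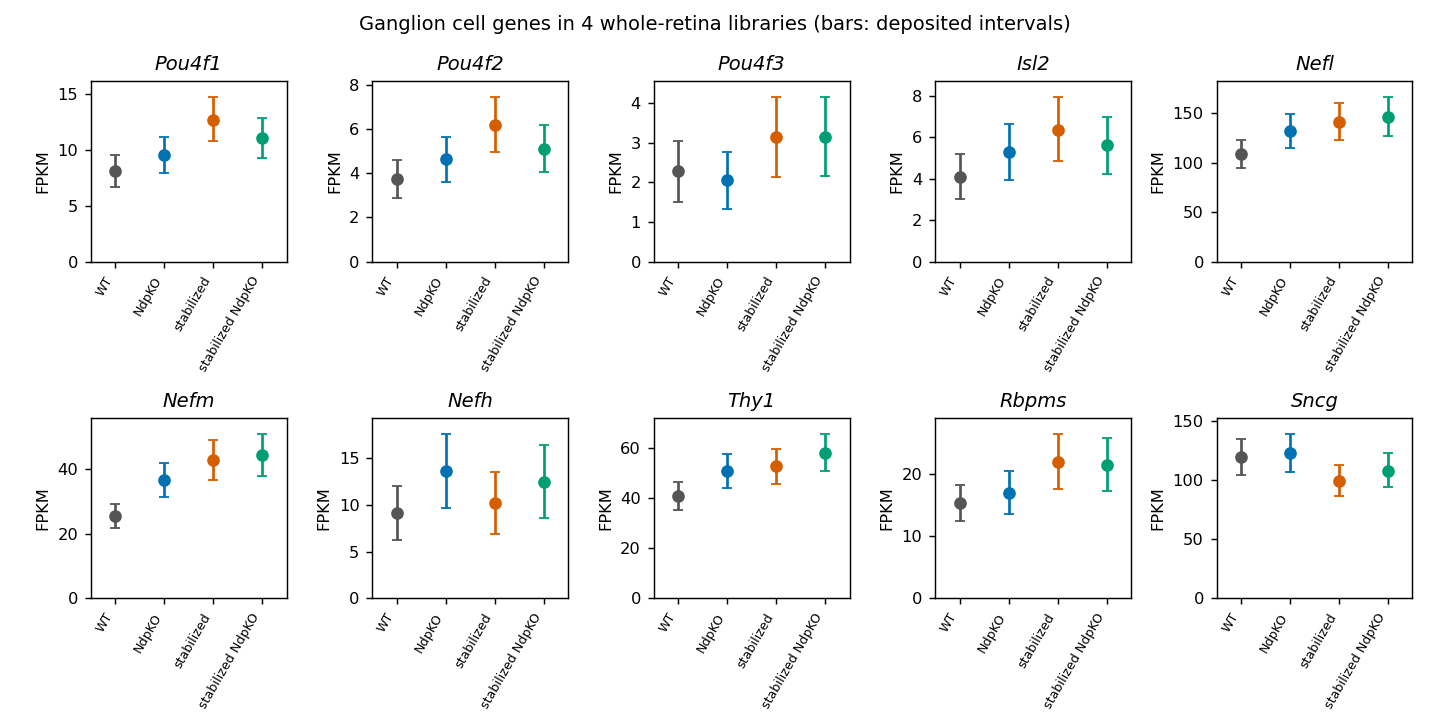
FPKM (y axis, from 0) of the 10 members in the 4 libraries (x axis), with the deposited interval of each value as a bar and 1 pooled library per genotype. WT is the lowest library in 8 panels, the intervals of Nefm in the 3 other libraries lie above that of WT, and Sncg is lowest in the stabilized library.

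Pou4f1 (chromosome 14, 104461676 to 104467999, minus strand, GENCODE M21 on mm10), which encodes Brn3a, was at 8.12 FPKM in WT (6.67 to 9.57), 9.58 FPKM in NdpKO (7.95 to 11.2), 12.7 FPKM in stabilized (10.8 to 14.7) and 11.1 FPKM in stabilized NdpKO (9.31 to 12.9). Stabilized was the highest library and its interval was apart from that of WT; the other 5 of 6 pairs of libraries overlapped. Pou4f2 (chromosome 8, 78433010 to 78436645, minus strand), the Brn3b gene needed for ganglion cell differentiation, was at 3.72 FPKM in WT (2.86 to 4.59), 4.62 FPKM in NdpKO (3.60 to 5.63), 6.18 FPKM in stabilized (4.94 to 7.42) and 5.11 FPKM in stabilized NdpKO (4.03 to 6.19). It had the same order of libraries as Pou4f1 and the same single pair with intervals apart. The ratio of Pou4f1 to Pou4f2, on the FPKM scale, lay between 2.06 and 2.18 in the 4 libraries. Pou4f3, the Brn3c gene of a smaller set of ganglion cells and of inner ear hair cells, was at 2.28 FPKM in WT (1.51 to 3.05) and 2.06 FPKM in NdpKO (1.33 to 2.78), against 3.15 FPKM in stabilized (2.14 to 4.15) and 3.15 FPKM in stabilized NdpKO (2.16 to 4.15). Both stabilized libraries were thus above both others, but every pair of intervals overlapped. Isl2 (chromosome 9, 55538672 to 55546180, plus strand), expressed by a subset of ganglion cells and by cones, was at 4.10 FPKM in WT (3.02 to 5.18), 5.31 FPKM in NdpKO (3.96 to 6.65), 6.37 FPKM in stabilized (4.83 to 7.92) and 5.62 FPKM in stabilized NdpKO (4.23 to 7.0). Its order was that of Pou4f1 and Pou4f2, with all intervals overlapping.

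Among the neurofilament subunits, Nefl (chromosome 14, 68083863 to 68089095, plus strand) was at 109 FPKM in WT (95.1 to 123), 132 FPKM in NdpKO (115 to 149), 141 FPKM in stabilized (123 to 160) and 146 FPKM in stabilized NdpKO (127 to 166). Only stabilized NdpKO had an interval apart from that of WT. Nefm (chromosome 14, 68082590 to 68124846, minus strand) was at 25.4 FPKM in WT (21.7 to 29.1), 36.6 FPKM in NdpKO (31.2 to 41.9), 42.8 FPKM in stabilized (36.6 to 49.0) and 44.2 FPKM in stabilized NdpKO (37.7 to 50.8). It was the 1 member whose intervals in all 3 other libraries were above that of WT, and its highest value was 1.74 times its lowest, the widest span of the list. Nefh (chromosome 11, 4938754 to 4948064, minus strand) was at 9.10 FPKM in WT (6.23 to 12.0), 13.6 FPKM in NdpKO (9.64 to 17.6), 10.2 FPKM in stabilized (6.87 to 13.5) and 12.5 FPKM in stabilized NdpKO (8.62 to 16.4). Nefh was the neurofilament gene that was highest in NdpKO, and its intervals all overlapped. On the FPKM scale the ratio of Nefl to Nefm was 4.30 in WT, 3.61 in NdpKO, 3.30 in stabilized and 3.31 in stabilized NdpKO, and that of Nefm to Nefh was 2.79, 2.69, 4.21 and 3.54 in the same order.

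Nefm and Nefh each share a deposited locus with another gene, and how fragments were divided there may bear on their values. In the deposited table Nefm has the same locus as A230070E04Rik, which was at 23.5 FPKM in WT, 33.8 FPKM in NdpKO, 36.6 FPKM in stabilized and 39.6 FPKM in stabilized NdpKO, the same order as Nefm. Nefh has the same deposited locus as Ap1b1, an adaptor protein gene, at 50.5 FPKM in WT and 58.7 to 61.8 FPKM in the other 3 libraries. The separate values of Nefm and Nefh and of these neighbours may therefore be uncertain, which was not tested. In GENCODE M21 the exons of Nefl and Nefm, on opposite strands, share 1108 bases, but their deposited loci (68083884 to 68087737 and 68119545 to 68131371 on chromosome 14) do not overlap. No other exon bases of a member were shared with another gene in that annotation, so Nefh and Ap1b1 shared none.

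Thy1 (chromosome 9, 44043384 to 44048579, plus strand) was at 40.8 FPKM in WT (35.3 to 46.3), 50.8 FPKM in NdpKO (44.2 to 57.5), 52.6 FPKM in stabilized (45.7 to 59.4) and 58.1 FPKM in stabilized NdpKO (50.6 to 65.5). WT was lowest, and only stabilized NdpKO had an interval apart from it. Rbpms (chromosome 8, 33782643 to 33929863, minus strand) was at 15.4 FPKM in WT (12.5 to 18.3) and 16.9 FPKM in NdpKO (13.5 to 20.4), against 22.0 FPKM in stabilized (17.5 to 26.4) and 21.4 FPKM in stabilized NdpKO (17.2 to 25.7). Like all members but Nefh and Sncg, Rbpms was higher in both stabilized libraries than in both others. Its intervals all overlapped. Sncg (chromosome 14, 34370274 to 34374789, minus strand) was at 120 FPKM in WT (104 to 135), 123 FPKM in NdpKO (107 to 139), 99.5 FPKM in stabilized (86.2 to 113) and 108 FPKM in stabilized NdpKO (94.2 to 123). Its values were lower in both stabilized libraries, and all intervals overlapped.

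The transcript of Sncg was the shortest of the list, at 852 bases, and the only one below 1000 bases. Of all tested genes with a known length, the 833 below 1000 bases had a median log2 ratio of -0.23 between stabilized and WT, and the 3431 from 4000 to 8000 bases a median of 0.04. With a trend on length and GC content removed from each library, the log2 ratio of Sncg between stabilized and WT was -0.13 in place of -0.27. The part of transcript length in the values of Sncg was not tested further.

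The level of each member, per length, can be ordered by its mean over the libraries: Pou4f3 at 2.66 FPKM, Pou4f2 at 4.91, Isl2 at 5.35, Pou4f1 at 10.4, Nefh at 11.3, Rbpms at 18.9, Nefm at 37.3, Thy1 at 50.6, Sncg at 113 and Nefl at 132. The 4 transcription factor genes were thus the lowest. Among neighbours in this order, the intervals of Pou4f2 and Isl2, and those of Pou4f1 and Nefh, overlapped in all 4 libraries. Those of Pou4f3 and Pou4f2 overlapped in WT and stabilized NdpKO, and those of Nefh and Rbpms in NdpKO. Those of Nefm and Thy1 overlapped in both stabilized libraries. Those of Sncg and Nefl overlapped in WT and NdpKO and were apart in both stabilized libraries, where Nefl was the higher. Intervals reached from 12.8% of the value on either side for Nefl in WT to 35.3% for Pou4f3 in NdpKO, and those of Nefh were also wide, at 29.2% to 32.4%.

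NdpKO against WT addresses the loss of Norrin, which cannot be told apart from the sex of the pooled mice. On the scale of log2(FPKM + 0.5), which understates changes of low genes, 9 of the 10 members were above 0, against 43.7% of all tested genes, and the member median was 0.28 against -0.02 over all genes. No member was at least 1.5-fold higher or lower, which 0.966% and 1.22% of all genes were. The log2 ratio was highest for Nefh (0.56) and Nefm (0.52). Nefm alone had intervals apart, as 0.433% of all genes did on the higher side. It was followed by Isl2 (0.34), Thy1 (0.31), Pou4f2 (0.28), Nefl (0.27), Pou4f1 (0.23), Rbpms (0.13) and Sncg (0.04). Pou4f3 was at -0.12.

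Stabilized against WT addresses endothelial beta-catenin activity with Ndp intact. The member median was 0.45 against -0.02 over all genes, and 9 of 10 members were above 0 against 45.9%. At least 1.5-fold higher were 3 of 10 members, against 1.67% of all genes: Nefm (0.74, 1.69 times by the deposited FPKM), Pou4f2 (0.66, 1.66 times) and Pou4f1 (0.62, 1.57 times). The same 3 had intervals apart, against 1.76% of all genes on the higher side. None was 1.5-fold lower, against 1.71%. Isl2 (0.58), Rbpms (0.50), Pou4f3 (0.39), Nefl (0.37), Thy1 (0.36) and Nefh (0.15) were higher by less, and Sncg was at -0.27. By the deposited FPKM, without the pseudocount, Isl2 was 1.55 times WT and so past 1.5-fold too. With the length and GC trend removed, Pou4f1 was at 0.57, below 1.5-fold, and Pou4f2 and Nefm stayed above it at 0.64 and 0.62.

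Stabilized NdpKO against NdpKO addresses the same activity without Ndp. The member median was 0.17 against 0.03 over all genes, with 8 of 10 members above 0 against 59.1%. On the log2(FPKM + 0.5) scale no member was 1.5-fold higher, which 1.76% of genes were, or 1.5-fold lower, which 0.920% were, and no member had intervals apart, against 1.26% of genes on the higher and 0.487% on the lower side. Pou4f3 had the highest ratio (0.51, and 1.53 times by the deposited FPKM), followed by Rbpms (0.33), Nefm (0.27), Pou4f1 (0.20), Thy1 (0.19), Nefl (0.15), Pou4f2 (0.13) and Isl2 (0.08). Nefh was at -0.12 and Sncg at -0.18. This comparison and that with Ndp intact share no library. In both, 8 of 10 members were above 0, all but Nefh and Sncg, against 35.9% of all tested genes. The difference between them, without minus with Ndp, was below 0 for 8 of 10 members, against 37.4% of all tested genes and 37 of the 71 other tested ganglion cell genes described further on, with a median of -0.25, while the median was 0.06 over all genes and -0.01 over those 71. It was lowest for Pou4f2 (-0.53), Isl2 (-0.50) and Nefm (-0.47). These differences have 1 library in each group and were not tested. They include the WT library, so a low value of a member in WT lowers its difference.

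**Figure D2:**
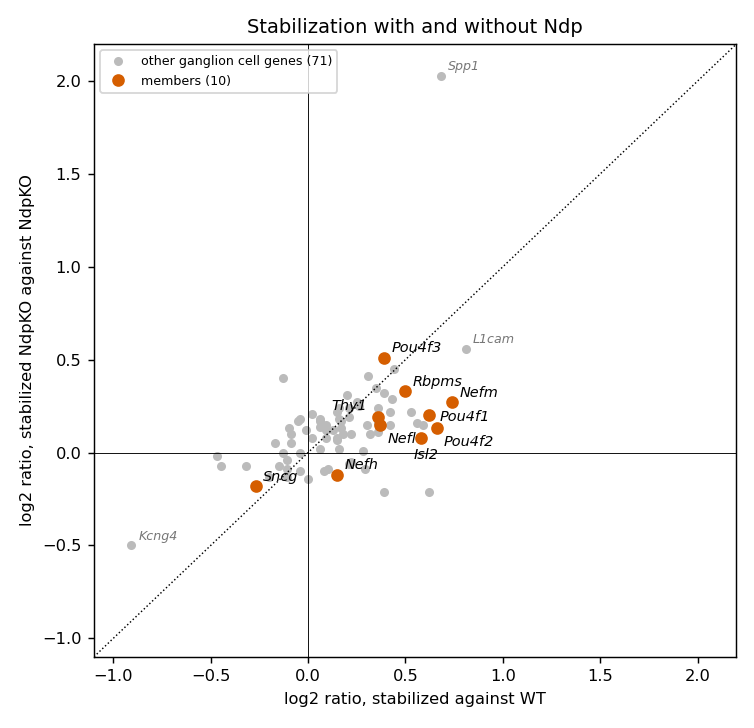
Log2 ratio of FPKM + 0.5 between stabilized and WT (x axis) and between stabilized NdpKO and NdpKO (y axis) for the 10 members and 71 other tested ganglion cell genes; the dotted line marks equal ratios. Of the members, 8 lie below the line, and Pou4f2 and Isl2 are furthest from it.

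Stabilized NdpKO against WT, which differs in every engineered element, gave a member median of 0.43 against 0.01 over all genes, with 9 of 10 members above 0 against 52.1%. Nefm was 1.5-fold higher (0.79), as were 1.79% of genes, and no member was 1.5-fold lower, as 1.07% were. Nefl (0.42), Nefm and Thy1 (0.50) had intervals apart, against 2.02% of genes on the higher side and 0.464% on the lower, where no member was. The other 6 members above 0 lay between 0.39 and 0.47, and Sncg was at -0.14. Against stabilized, stabilized NdpKO had a member median of 0.02, against 0.04 over all genes, with ratios from -0.25 for Pou4f2 to 0.29 for Nefh, 6 members above 0 against 63.0% of genes, and no member with intervals apart (0.312% of genes higher, 0.213% lower). None was 1.5-fold higher, which 0.981% of genes were, or 1.5-fold lower, which 0.692% were. The 3 comparisons with WT share that library, so a low value of a member in WT raises all of them.

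**Figure D3:**
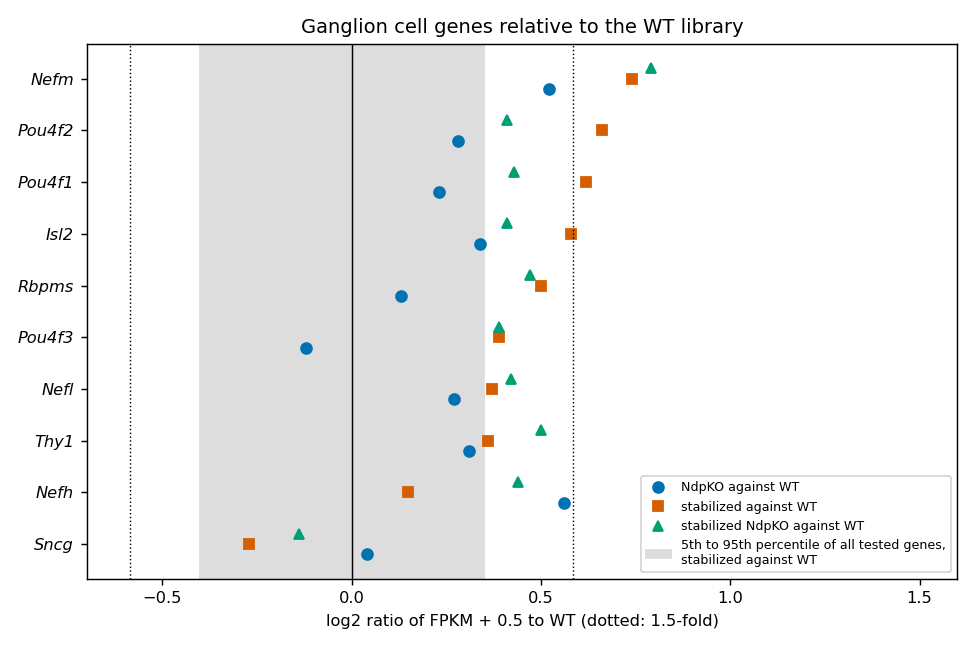
Log2 ratio of FPKM + 0.5 to WT (x axis) of each member (y axis) in NdpKO, stabilized and stabilized NdpKO; dotted lines mark 1.5-fold and the grey band runs from -0.40 to 0.35, the 5th to 95th percentile of all tested genes between stabilized and WT. In stabilized, 8 of the 10 members lie above the band, Nefh and Sncg within it.

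Each state of beta-catenin and each state of Ndp was present in 2 libraries, which allows an additive model of the 2 factors (limma, 1 residual degree of freedom, adjusted over 13150 genes). The model counts any interaction as error. No member passed an adjusted p of 0.05 for stabilization, where 0.038% of all genes were called higher and 0.106% lower. The log2 effect of stabilization was 0.42 for Rbpms (SE 0.073, adjusted p = 0.238), 0.45 for Pou4f3 (SE 0.097, adjusted p = 0.255), 0.51 for Nefm (SE 0.132, adjusted p = 0.261) and 0.41 for Pou4f1 (SE 0.119, adjusted p = 0.271), each higher in both pairs of libraries. At an unadjusted p under 0.05, 5 members were higher (these 4 and Thy1) and 1 lower (Sncg, -0.22), against 9.70% and 6.37% of all genes. For Ndp no member passed either (0.0684% of genes in each direction), and the highest effects were 0.42 for Nefh and 0.28 for Nefm (adjusted p = 0.991 for both). At an unadjusted p under 0.05 Nefh and Thy1 were higher, against 2.28% of genes, and no member lower, against 1.61%. For comparison, Cldn5, the claudin-5 gene of the blood-retina barrier, with a stabilization effect of 2.65 (SE 0.61), had an adjusted p of 0.257. Its log2 ratio was 1.43 with Ndp and 3.87 without, a difference that this model counts as error.

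The other ganglion cell genes were given by 3 further lists with 71 tested members of 82. Their median was 0.07 between NdpKO and WT, 0.15 between stabilized and WT and 0.12 between stabilized NdpKO and NdpKO, closer to all genes than that of the 10. At least 1.5-fold higher were 1, 4 and 1 of the 71 in these comparisons, against 0.966%, 1.67% and 1.76% of all tested genes. Lower were 1, 1 and 0, against 1.22%, 1.71% and 0.92%. Of 22 tested specification and subtype regulators, 18 were above 0 between stabilized and WT (median 0.21), against 45.9% of all tested genes. Isl1, shared with bipolar and amacrine cells, was at 108, 96.5, 108 and 105 FPKM in WT, NdpKO, stabilized and stabilized NdpKO, and Eomes, of intrinsically photosensitive ganglion cells, at 3.09, 3.68, 4.32 and 4.13 FPKM, both with overlapping intervals. Irx2 was at 1.03 FPKM in WT and 1.96 FPKM in NdpKO (log2 ratio 0.69, intervals apart). Atoh7, which commits progenitors to the ganglion cell fate before birth, was at or below 1.00 FPKM in all 4 libraries and was not tested.

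Of 21 tested axon and cytoskeleton genes, 15 were above 0 between stabilized and WT (median 0.17), against 45.9% of all tested genes. L1cam, an adhesion molecule of axons encoded on the X chromosome, was at 9.81 FPKM in WT, 12.0 FPKM in NdpKO, 17.5 FPKM in stabilized and 17.9 FPKM in stabilized NdpKO. It was the gene of these lists with the highest ratio between stabilized and WT (0.81), with intervals apart, and its intervals were apart without Ndp too (0.56). Tubb3, the neuronal beta-tubulin, was at 92.0, 108, 124 and 133 FPKM in the order WT, NdpKO, stabilized, stabilized NdpKO. Ina, which encodes internexin, the partner of the neurofilaments, was at 44.2, 52.4, 59.4 and 60.9 FPKM in that order. Both thus had the order of Nefm, and the intervals of both were apart between stabilized NdpKO and WT. Peripherin (Prph) was at or below 0.547 FPKM throughout. Mapt, the tau gene, named after its values were seen, also had the order of Nefm, at 48.5, 53.4, 62.4 and 63.1 FPKM. Gap43, Stmn2 and Uchl1, genes of axon growth, microtubules and ubiquitin turnover, did not have that order: Gap43 lay between 62.7 and 70.9 FPKM, Stmn2 was highest in WT (114 FPKM against 101 to 107 FPKM) and Uchl1 lay between 159 and 174 FPKM, all with overlapping intervals.

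Of 28 tested markers, channels and transmitter genes, 18 were above 0 between stabilized and WT (median 0.08), against 45.9% of all tested genes. Slc17a6, the vesicular glutamate transporter of ganglion cells, was at 12.7, 15.5, 16.0 and 16.6 FPKM, and Rbpms2, the paralogue of Rbpms, at 15.9, 19.5, 20.5 and 21.9 FPKM, in the order WT, NdpKO, stabilized, stabilized NdpKO. Their intervals overlapped and WT was lowest in both. The melanopsin gene Opn4 lay between 2.12 and 2.59 FPKM. Spp1 and Kcng4, used as markers of alpha ganglion cells, differed most. Spp1, which other retinal cells also express, was at 4.77 FPKM in WT, 1.28 FPKM in NdpKO, 7.94 FPKM in stabilized and 6.79 FPKM in stabilized NdpKO, while the potassium channel gene Kcng4 was at 4.59, 5.30, 2.21 and 3.59 FPKM in that order. These alpha cell markers thus had opposite orders, Kcng4 lowest and Spp1 highest in stabilized.

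The 8 other genes of at least 5 FPKM closest to the median profile of the members over the 4 libraries, by Euclidean distance of centred log2 values, were Chrna3, Mmp15, Disp2, Sparcl1, Chrnb3, Igsf8, Tnks1bp1 and Gaa, at distances of 0.057 to 0.082. The median profile was -0.29 in WT, 0.00 in NdpKO, 0.23 in stabilized and 0.15 in stabilized NdpKO. Chrna3 and Chrnb3 encode nicotinic receptor subunits and were on the list of other ganglion cell genes. Isl2 was the member closest to the profile (0.087) and Sncg the farthest (0.602).

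Markers of some other cells were also higher in libraries where the members were. Of all tested genes, 0.966% were at least 1.5-fold higher and 1.22% lower between NdpKO and WT. Between stabilized and WT the shares were 1.67% and 1.71%, and 1.76% were higher with intervals apart. Summed over 9 astrocyte genes the level was 103 FPKM in WT, 109 FPKM in NdpKO, 106 FPKM in stabilized and 125 FPKM in stabilized NdpKO, with none at 0, and 1 of 8 tested genes was 1.5-fold higher between NdpKO and WT and 3 between stabilized and WT (1 lower). Gfap, of the astrocytes that line ganglion cell axons and of stressed Muller glia, was at 4.02, 6.38, 7.10 and 8.80 FPKM in that order, the same order as Nefm. Most of the astrocyte sum came from Slc1a3, at 76.3 FPKM in WT. Slc1a3, Sox9 and Aqp4 are also on the Muller glia list, so the astrocyte sum says little about astrocytes alone. Over 16 pan-endothelial genes, none at 0, the sum was 72.1 and 64.6 FPKM in WT and NdpKO and 111 and 110 FPKM in stabilized and stabilized NdpKO, and 6 of 12 tested genes were 1.5-fold higher between stabilized and WT. The 17 amacrine genes, of which Ptf1a was at 0 in some library, summed to 381, 369, 407 and 412 FPKM, and the 7 horizontal cell genes of the table, Ptf1a among them, to 143 to 146 FPKM. No tested gene of either list was 1.5-fold apart in these comparisons. Most of the horizontal cell sum came from Prox1, Tpm3 and Slc32a1, at 49.1, 45.2 and 30.4 FPKM in WT. Prox1 and Slc32a1 are also on the amacrine list, so the sum says little about horizontal cells alone. Myelin and oligodendrocyte genes, which mark the optic nerve, summed to 30.1 to 34.8 FPKM over 12 genes, with Opalin at 0 in some library and Mbp between 7.84 and 9.91 FPKM. The lens and retinal pigment epithelium list, with no gene at 0, summed to 56.5, 63.0, 68.4 and 52.1 FPKM, and 3 of its 6 tested genes (Rpe65, Rgr and Pmel) were 1.5-fold higher with intervals apart between stabilized and WT. In that comparison 8 of 10 cone genes (median -0.27) and 8 of 10 Muller glia genes (median -0.14) were below 0. Over all 13150 tested genes, 7078 were below 0. The part of any of these cells, or of sequencing depth, in the values of the members was not tested.

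**Figure D4:**
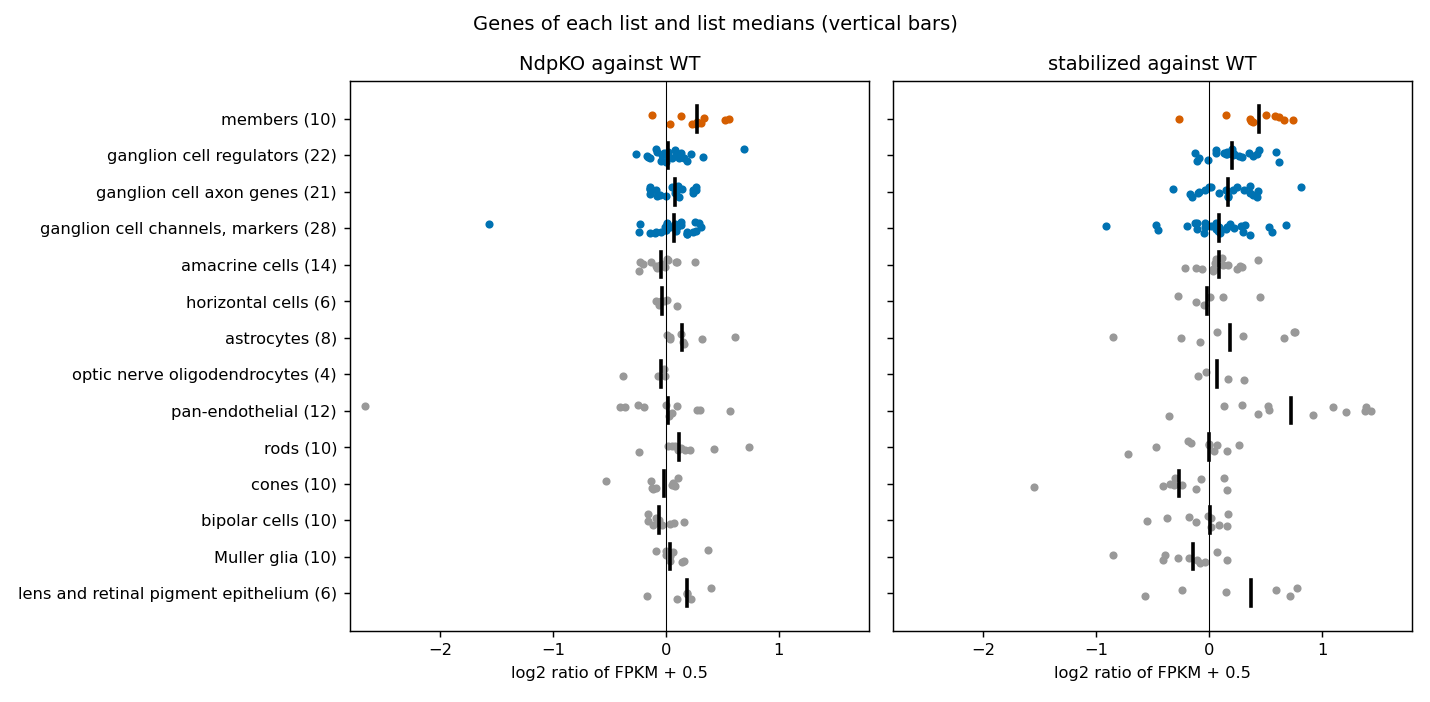
Log2 ratio of FPKM + 0.5 (x axis) of every tested gene of each list (y axis, number of tested genes in brackets) between NdpKO and WT (left) and between stabilized and WT (right); vertical bars are list medians. The member medians of 0.28 and 0.45 lie to the right of those of the 3 other ganglion cell lists, and the pan-endothelial median of 0.73 lies further right between stabilized and WT.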

How the data were processed

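Per the labels, RNA of 3 batches was pooled per genotype for each TruSeq library. TopHat, Cuffdiff and mm10 are named in the submitters' processing notes; versions, annotation, read totals and strand handling were not given in the sources used here. The authors deposited FPKM per gene and library. The interval bounds, deposited by the authors beside them, are a signal on the FPKM scale. FPKM are relative within a library.

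Columns were matched to libraries by the number in their name and in the sample description. Tested genes averaged 1 FPKM or more, with status OK in all 4 libraries; 145 genes had another status. Log2 ratios used a pseudocount of 0.5. Called means at least 1.5-fold; with 1 library per genotype the 5 comparisons carry no test. Limma 3.58.1 (R 4.3.3; intensity trend, Benjamini-Hochberg adjustment over 13150 genes) fitted both factors without interaction. The fit was tested on simulated data with known changes.

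Named genes were all members, 12 set ganglion cell genes, other ganglion cell genes 1.5-fold apart with intervals apart (up to 6 per comparison), checks and defining markers, and the 8 genes nearest the median profile. One defining marker is not reported here. A230070E04Rik and Ap1b1 (for their loci), Mapt, Rpe65, Rgr, Pmel, Slc1a3, Prox1, Tpm3 and Slc32a1 were named after their values were seen. The members and lists were chosen with earlier results of these data known. GENCODE M21 gave positions and transcript lengths (90.0% of tested genes), RefSeq the promoters. Alternatives were pseudocounts of 0.1 and 1, no minimum and a minimum of 5 FPKM, TPM, re-centring, a variance prior without trend and, added after seeing the data, a correction for length and GC content and the list without Sncg. Python 3.11.15, pandas 2.3.3, numpy 2.4.6, statsmodels 0.14.6 and matplotlib 3.10.9 were used.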

Additional observations from a re-analysis of the deposited data

Results flagged for a closer look

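For 6 members the effect of a factor had opposite signs on the 2 backgrounds of the other factor, with 1 library per group and no test of the difference. An effect of Ndp loss cannot be told apart here from the sex of the pooled mice. The effect of Ndp loss, with unmodified and with stabilized beta-catenin, was 0.23 and -0.19 on the log2 scale for Pou4f1 (difference -0.42), 0.28 and -0.25 for Pou4f2 (difference -0.53), and 0.34 and -0.17 for Isl2 (difference -0.50). These transcription factor genes were highest in stabilized and second highest in stabilized NdpKO. For Rbpms it was 0.13 and -0.03 (difference -0.17) and for Pou4f3 -0.12 and 0.00 (difference 0.12). The second value of Pou4f3 was above 0 only before rounding, with 3.15 FPKM in both stabilized libraries. The effect of stabilization on Nefh, with and without Ndp, was 0.15 and -0.12 (difference -0.27). Opposite signs for Ndp were seen in 49.5% of all tested genes and for stabilization in 33.1%, so 5 of 10 and 1 of 10 members are close to or below the share over all genes.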

How the results depend on the processing

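No paired analysis was possible because each genotype has 1 library and the labels give no replicate numbers; leaving out a library leaves the fit of both factors without residual degrees of freedom. Under all alternatives run, the member median stayed between 0.26 and 0.30 for NdpKO against WT, 0.43 and 0.53 for stabilized against WT, 0.11 and 0.19 for stabilized NdpKO against NdpKO, 0.36 and 0.45 for stabilized NdpKO against WT, and -0.05 and 0.05 for stabilized NdpKO against stabilized; the difference of the stabilization effects stayed between -0.35 and -0.24. With a minimum of 5 FPKM only 8 members remained, without Pou4f2 and Pou4f3. The length and GC correction and the list without Sncg were chosen after seeing the data. The count of members 1.5-fold higher moved from 0 to 1 for stabilized NdpKO against NdpKO with a pseudocount of 0.1 (Pou4f3, 0.59) and for NdpKO against WT with TPM (Nefh, 0.59), both close to the threshold. Isl2 exceeded 1.5-fold in stabilized against WT with a pseudocount of 0.1 (0.62), TPM (0.67) and re-centring (0.60). In the fit of both factors, the 5 higher and 14 lower genes for stabilization became 0 and 0 without a minimum level, 8 higher with a minimum of 5 FPKM, 8 higher with TPM, and 3 higher and 6 lower with the length and GC correction; the 9 and 9 for Ndp became 0 and 0 without a minimum and 4 lower with that correction. The cause was not tested. No member was called in any of these fits, with adjusted p-values from 0.181 to 1 for stabilization and 0.746 to 1 for Ndp. Depth, as estimated from the lowest values, was lowest in stabilized. The intervals of the members were not wider there, with a median half-width of 17.8% of the value against 18.2% in WT. Wide intervals limit what Pou4f3, Nefh and Isl2 can show.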
